A study of Homo sapiens with 16 samples.

Results

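The 10 genes described here encode proteins of the tight and adherens junctions that hold epithelial cells together, and they were picked by gene symbol (CDH1, CTNNB1, CTNNA1, CTNND1, AFDN, TJP1, OCLN, F11R, CLDN1 and EPCAM) from 60623 listed genes, of which 20747 had a read in at least 1 library. All 10 were found and all 10 passed the filter on low values in every comparison. The microfluidic chips of the study held Caco-2, derived from a human colon tumour and standing in for the gut, and HepG2, derived from a human liver tumour and standing in for the liver, with each line kept alone (mono-culture) or joined to the other by circulating medium (co-culture). Each culture received medium without added fatty acids (control) or with palmitic and oleic acid, given together at 1 mM as free fatty acids (FFA) in a medium with fatty-acid-free albumin. This gave 8 groups (4 in each line) of 2 replicates, 16 libraries of polyadenylated RNA in all, prepared as cDNA with PCR and sequenced with Nanopore technology. The labels give a treatment of 1 day for every sample, while the study describes a short and a longer treatment, so the exposure behind these libraries is not certain. Both parts are tumour lines, so neither is a model of normal gut or liver epithelium in every respect. The labels do not say that replicates came from separate cultures; the study's methods state that its mRNA sequencing rested on independent experiments, without tying these libraries to them. If the replicates were not separate cultures, p-values measure a spread that may be technical.

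Adherens junctions are built around E-cadherin (CDH1), a transmembrane protein that binds its like on the neighbouring cell and whose tail holds p120-catenin (CTNND1) and β-catenin (CTNNB1). α-catenin (CTNNA1) links that complex to actin, and afadin (AFDN) does the same for the nectins. Tight junctions close the space between cells with the strand proteins claudin-1 (CLDN1) and occludin (OCLN) and the adhesion molecule JAM-A (F11R), anchored by the scaffold ZO-1 (TJP1). EPCAM is an epithelial adhesion molecule that binds claudins. In gut epithelium these junctions set the barrier to the gut content, and in hepatocytes they seal the bile canaliculi.

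Every gene is protein coding, and positions are from GENCODE 44 on GRCh38, the build that the submitters' processing notes name. The cadherin and catenin genes lie on chromosome 16 (CDH1, ENSG00000039068, 68737292 to 68835537), chromosome 3 (CTNNB1, ENSG00000168036, 41194741 to 41260096), chromosome 5 (CTNNA1, ENSG00000044115, 138610967 to 138935034) and chromosome 11 (CTNND1, ENSG00000198561, 57753243 to 57819546). AFDN (ENSG00000130396) lies on chromosome 6 (167826893 to 167972023). Of the tight junction genes, TJP1 (ENSG00000104067) lies on chromosome 15 (29699367 to 29968915), OCLN (ENSG00000197822) on chromosome 5 (69492292 to 69558104), F11R (ENSG00000158769) on chromosome 1 (160995211 to 161021343) and CLDN1 (ENSG00000163347) on chromosome 3 (190305707 to 190322446). EPCAM (ENSG00000119888) lies on chromosome 2 (47345158 to 47387601). TJP1, F11R and CLDN1 are on the minus strand and the others on the plus strand. The counts of 2 genes are uncertain because a readthrough gene overlaps them on the same strand. F11R had the same number of reads as the readthrough gene AL591806.4 in all 16 libraries, so reads of either gene cannot be assigned to it. The readthrough gene AP001931.1, which overlaps CTNND1, held 846 reads over the 16 libraries, against 54 in Caco-2 and 28 in HepG2 for CTNND1 itself. The pseudogenes OCLNP1 and CTNNA1P1 held 0 and 1 read.

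Promoter sequence was available for 6 of the 10 genes (CTNNB1, CTNNA1, AFDN, TJP1, OCLN and CLDN1) in the RefSeq table on GRCh38.p14, and the 250 bases before the start nearest the main transcript were searched on both strands. The GC box GGGCGG, a site for SP1-type factors, matched in 5 of the 6, all but OCLN, against 42.6% of 35116 promoters. The E-box CAGGTG, the letters that SNAI and ZEB repressors bind, matched in 2 of the 6, with 4 matches in AFDN and 1 in OCLN (133 bases before the start), against 17.5% of promoters. TATAAA and CCAAT matched in none of the 6, against 10.7% and 32.0% of promoters. These matches are letters only, not measured binding. All 6 windows were rich in G and C, at 68.8% to 84.8%, beside a median of 58% over all promoters. The part of this in the matches was not tested. The start used for AFDN lies 724 bases from that of its main transcript. The sequences of 3 genes are printed because their pooled levels differed between the lines in different directions. OCLN and CLDN1 had the lower pooled level in HepG2, and CTNNB1 the higher. Only OCLN kept the libraries of the lines apart, while those of CLDN1 and CTNNB1 overlapped. They run 5′ to 3′ along the gene, hold only window bases outside annotated exons, and carry GC boxes in capitals.
OCLN (chr5:69492660-69492772, plus strand): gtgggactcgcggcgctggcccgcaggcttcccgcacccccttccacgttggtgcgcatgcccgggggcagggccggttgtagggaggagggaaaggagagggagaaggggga
CLDN1 (chr3:190322447-190322540, minus strand): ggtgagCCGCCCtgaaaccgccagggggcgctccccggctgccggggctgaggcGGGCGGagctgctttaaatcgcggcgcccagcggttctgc
CTNNB1 (chr3:41199255-41199388, plus strand): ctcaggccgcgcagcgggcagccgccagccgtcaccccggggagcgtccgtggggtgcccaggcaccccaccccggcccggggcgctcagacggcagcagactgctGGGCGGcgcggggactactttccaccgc
The OCLN stretch has no capitals because its E-box lies partly inside an exon and is not shown.

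Levels are in CPM (reads per 1000000 reads of the library), and errors of group means are standard deviations of 2 replicates. Depth limited what these genes could show. Libraries held 353871 to 974654 reads in Caco-2 and 49634 to 1657423 reads in HepG2, where the co-culture FFA pair was the shallowest with 147096 and 49634 reads. In that pair 1 read stood for 6.80 and 20.1 CPM, and a floor of 3 reads came to 20.4 and 60.4 CPM, against 1.81 to 10.9 CPM elsewhere. Such floors, and the intervals given here, cover counting error only, since PCR reads without molecular identifiers are not independent molecules. Replicate pairs spread more widely than counting error, with a chi-square per degree of freedom of 1.52 to 2.85 over the groups. Pooled ratios also give deeper libraries more weight. Mitochondrial genes took 2.73% to 3.97% of reads in Caco-2 and 6.29% to 10.6% in HepG2. As a check of the labels, 9 of 10 hepatocyte markers were higher in every HepG2 than in every Caco-2 library, APOC3 being the exception. Of 10 intestinal markers only CDH17 and TSPAN8 separated the lines in this way, CDX1 was at 0 in every library and ISX in every Caco-2 library, and CDX2, LGALS4, GPA33 and KRT20 reached at most 6.43 CPM in Caco-2. In bulk RNA, fewer cells of a type and less RNA per cell cannot be told apart.

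Junction gene RNA was more abundant in the gut line. The 10 genes together reached 1067 to 1390 CPM in the Caco-2 libraries and 319 to 604 CPM in the HepG2 libraries, and without EPCAM, which took most of that sum, 266 to 384 CPM against 117 to 262 CPM. All 10 were detected in each Caco-2 library, while 6 to 10 were detected in the HepG2 libraries.

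**Figure D1:**
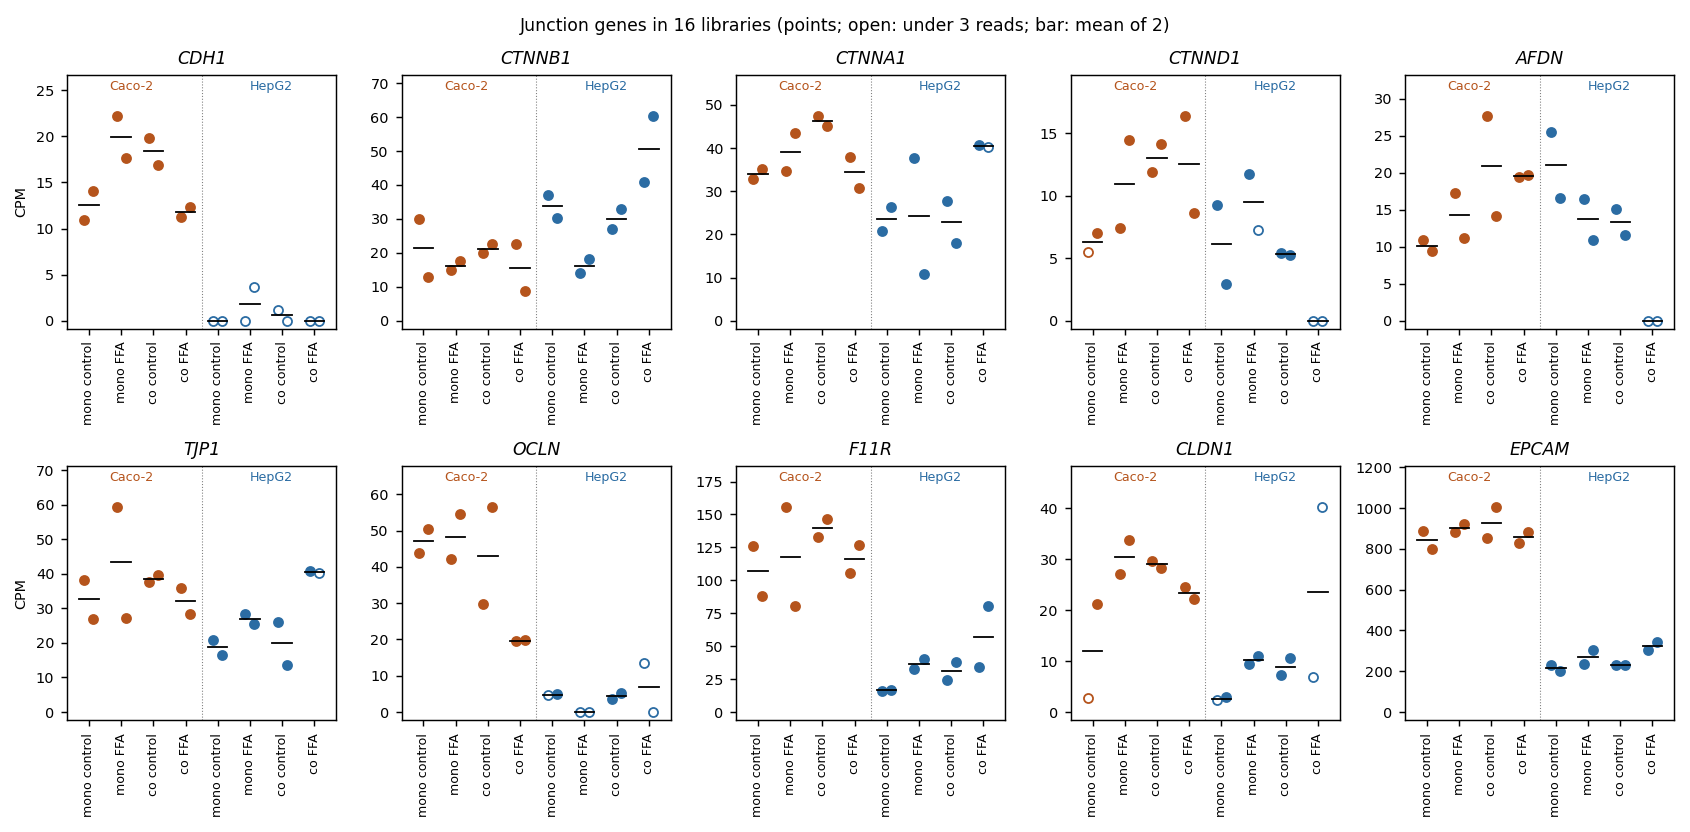
CPM of each of the 10 genes (vertical axes, each starting near 0 and with its own scale) in the 8 groups, with a point for each of the 2 replicates, a bar for their mean and open points for fewer than 3 reads. CDH1, OCLN and EPCAM separate the 8 Caco-2 from the 8 HepG2 libraries, and open points are frequent in HepG2 co-culture FFA and for CDH1 throughout HepG2.

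The adherens junction genes differed most at the cadherin itself. CDH1, which encodes E-cadherin, measured 10.9 and 14.1 CPM in Caco-2 mono-culture control, 22.3 and 17.7 CPM in mono-culture FFA, 19.8 and 16.9 CPM in co-culture control, and 11.3 and 12.3 CPM in co-culture FFA. In HepG2 it was at 0 in 6 of 8 libraries, with 1 read (3.64 CPM) in mono-culture FFA and 2 reads (1.21 CPM) in co-culture control. Every Caco-2 library therefore lay above every HepG2 library, although none of the Caco-2 values rested on more than 12 reads. CDH2, the N-cadherin gene, showed the opposite pattern, at 0 in all 8 Caco-2 libraries and at a median of 15.7 CPM (0 to 25.9 CPM) in HepG2; it was singled out after its values were seen.

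CTNNB1, whose protein joins the cadherin tail and also carries the Wnt signal, was spread widely in Caco-2, from 8.62 to 30.1 CPM with a median of 18.7 CPM. In HepG2 it measured 37.1 and 30.3 CPM in mono-culture control, 14.1 and 18.2 CPM in mono-culture FFA, 27.1 and 32.8 CPM in co-culture control, and 40.8 and 60.4 CPM in co-culture FFA. The last pair rested on 6 and 3 reads. The ranges of the lines overlapped. CTNNA1 ranged from 30.8 to 47.5 CPM in Caco-2 and from 10.9 to 40.8 CPM in HepG2, and the reads of CTNNB1 for each read of CTNNA1 came to 0.465 over all Caco-2 libraries and 1.13 over all HepG2 libraries. CTNND1 was counted low in both lines, at 5.48 to 16.4 CPM in Caco-2 and 0 to 11.8 CPM in HepG2. Its count is uncertain because of the overlapping readthrough gene AP001931.1, so a low level of its RNA is not established.

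AFDN measured 10.9 and 9.40 CPM in Caco-2 mono-culture control, 17.3 and 11.2 CPM in mono-culture FFA, 27.7 and 14.1 CPM in co-culture control, and 19.5 and 19.7 CPM in co-culture FFA. In HepG2 the values were 25.5 and 16.6 CPM, 16.5 and 10.9 CPM, and 15.1 and 11.6 CPM in the first 3 groups, and 0 in both co-culture FFA libraries. Outside that last pair the lines covered the same range. CTNND1 was listed at 0 in the same pair and in no other library. At the pooled level of HepG2 co-culture control, 13.8 CPM for AFDN and 5.38 CPM for CTNND1, the 196730 reads of that pair would hold 2.72 and 1.06 reads, so both the zeros and the levels they are set against lie under the floor of 3 reads over the pair (15.2 CPM). Log2 changes fitted against this pair, given with the tests, depend on the pseudocount and do not measure a fold change.

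Among the tight junction genes, OCLN stood furthest apart. It measured 43.8 and 50.5 CPM in Caco-2 mono-culture control, 42.0 and 54.6 CPM in mono-culture FFA, 29.7 and 56.5 CPM in co-culture control, and 19.5 and 19.7 CPM in co-culture FFA. In HepG2 it measured 4.64 and 4.89 CPM, 0 and 0 CPM, 3.62 and 5.28 CPM, and 13.6 and 0 CPM in the same order of groups. No HepG2 library reached the lowest Caco-2 library, and within Caco-2 both co-culture FFA libraries lay below the other 6.

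F11R measured 126 and 88.1 CPM in Caco-2 mono-culture control, 156 and 80.4 CPM in mono-culture FFA, 133 and 147 CPM in co-culture control, and 106 and 127 CPM in co-culture FFA. In HepG2 it measured 16.2 and 16.6 CPM, 33.0 and 40 CPM, 24.1 and 38.1 CPM, and 34.0 and 80.6 CPM. A single HepG2 library, the shallowest, with 4 reads of F11R, reached above the lowest Caco-2 library. In HepG2 the mono-culture control pair was the lowest of the 8 libraries, and the share of all genes with such a pair was again not determined.

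CLDN1 measured 2.74 and 21.1 CPM in Caco-2 mono-culture control, from 1 and 18 reads, and 22.2 to 33.7 CPM in the other 6 Caco-2 libraries. In HepG2 it measured 2.32 and 2.94 CPM in mono-culture control, 9.42 and 10.9 CPM in mono-culture FFA, 7.23 and 10.6 CPM in co-culture control, and 6.80 and 40.3 CPM in co-culture FFA, the last pair from 1 and 2 reads. In both lines the lowest library was therefore a mono-culture control library. TJP1 ranged from 27.0 to 59.4 CPM in Caco-2 and from 13.7 to 40.8 CPM in HepG2, and 3 HepG2 libraries lay above the lowest Caco-2 library. Its values in HepG2 co-culture FFA, 40.8 and 40.3 CPM, rested on 6 and 2 reads.

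EPCAM was the best counted of the 10, with 4252 reads in Caco-2 and 1153 in HepG2. It measured 889 and 801 CPM in Caco-2 mono-culture control, 883 and 924 CPM in mono-culture FFA, 852 and 1006 CPM in co-culture control, and 831 and 883 CPM in co-culture FFA. In HepG2 it measured 232 and 201 CPM, 238 and 306 CPM, 230 and 230 CPM, and 306 and 343 CPM. The lines did not overlap, and in HepG2 all 4 FFA libraries lay above all 4 controls.

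When the 8 groups were put in order of their mean, 1 to 3 of the 7 steps between neighbours separated both replicates of 1 group from both of the next. For CDH1, OCLN, F11R and EPCAM the 4 Caco-2 groups came first and the step from the lowest Caco-2 to the highest HepG2 group was such a step. Many of these steps lay within a line, such as the one for OCLN from Caco-2 co-culture control to co-culture FFA and the one for F11R from HepG2 co-culture control to mono-culture control. Neighbours at the remaining steps overlapped. How often such steps occur over all genes was not determined, so they only describe these genes.

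Whether the lines differed was tested over the 4 conditions together. Of the 10 genes, 7 were lower and 1 was higher in HepG2 with an adjusted p under 0.05 (limma's moderated test on log2(CPM + 1), Benjamini-Hochberg over 17544 genes). Across all genes tested 30.3% passed, 17.9% as lower and 12.5% as higher in HepG2. The median log2 difference of the 10 was -1.26, beside -0.16 for all genes. The median of all genes depended on the fit, at -0.06 without the HepG2 co-culture FFA pair and -0.03 with DESeq2. Because the genes were chosen with earlier results of these data known, this count describes them and is no test of the group.

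The genes lower in HepG2 were led by CDH1, with a log2 difference of -3.60 ± 0.40 (SE; limma adjusted p = 8.03e-06), and OCLN, with -3.52 ± 0.45 (limma adjusted p = 3.16e-05). F11R followed with -1.88 ± 0.21 (limma adjusted p = 8.63e-06) and EPCAM with -1.78 ± 0.07 (limma adjusted p = 3.33e-10). These 4 kept their direction and passed in each of 27 alternatives, among them leaving out each library in turn. On this scale the differences of low genes are understated, and the pooled reads gave a Caco-2 to HepG2 ratio of 24.7 for CDH1 (95% exact counting interval 8.11 to 122), 9.12 for OCLN (5.73 to 15.3), 4.23 for F11R (3.5 to 5.14) and 3.74 for EPCAM (3.5 to 3.99). Of the genes tested, 5.97% had every HepG2 library below every Caco-2 library, and CDH1, OCLN and EPCAM were among them, while 4.3% had the reverse and none of the 10 did.

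CLDN1 was lower in HepG2 by a log2 difference of -1.22 ± 0.40 (limma adjusted p = 0.0337), with a pooled ratio of 3.32 (2.27 to 4.97). The limma call was lost in 13 of 16 fits that left out 1 library (limma adjusted p up to 0.103), while edgeR on the recovered reads gave an adjusted p of 2.38e-06.

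CTNND1 (-1.29 ± 0.33, limma adjusted p = 0.00884) and AFDN (-1.0 ± 0.26, limma adjusted p = 0.00990) passed as lower in HepG2, but both calls rested on the HepG2 co-culture FFA pair in which they were at 0. Without that pair the differences were -0.49 ± 0.34 for CTNND1 (limma adjusted p = 0.300) and 0.12 ± 0.26 for AFDN (limma adjusted p = 0.751). The pooled ratio of AFDN was 1.10 (0.789 to 1.52), which includes 1, and that of CTNND1 was 1.95 (1.22 to 3.20). All CTNND1 values cover only the reads listed for it, not those of the overlapping readthrough gene AP001931.1.

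CTNNB1 alone among the 10 passed as higher in HepG2, by 0.74 ± 0.25 (limma adjusted p = 0.0392), with a pooled Caco-2 to HepG2 ratio of 0.609 (0.461 to 0.802). This call also depended on the shallow pair (0.40 ± 0.27 without it, limma adjusted p = 0.283) and was lost in 12 of 16 fits that left out 1 library and with edgeR (adjusted p = 0.0785). CTNNA1 (-0.55 ± 0.24, limma adjusted p = 0.0981) and TJP1 (-0.50 ± 0.21, limma adjusted p = 0.0995) did not pass. Without the shallow pair they did, at -0.81 ± 0.25 (limma adjusted p = 0.0224) and -0.77 ± 0.23 (limma adjusted p = 0.0170), and their pooled ratios were 1.49 (1.18 to 1.88) and 1.57 (1.23 to 2.02).

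**Figure D2:**
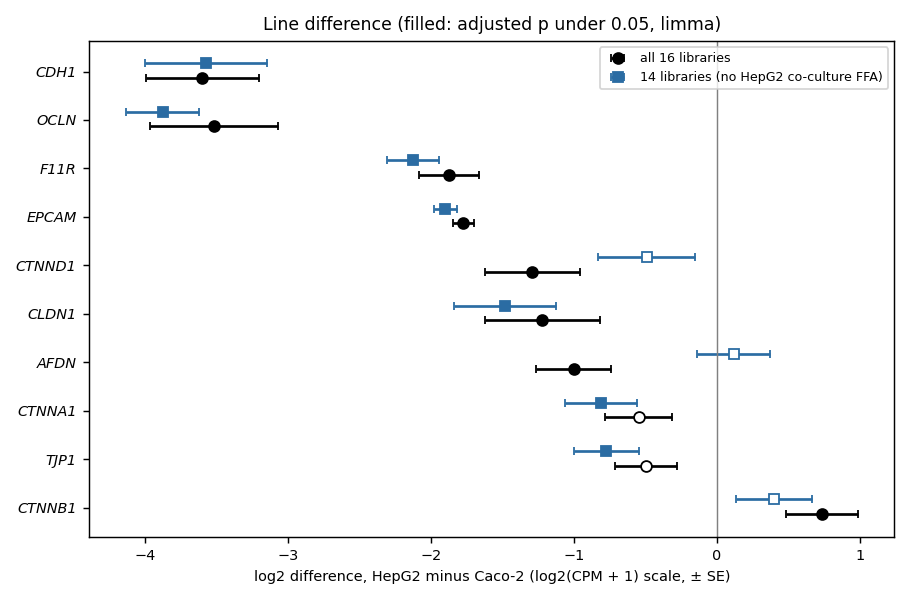
Log2 difference between the lines for each of the 10 genes (horizontal axis, HepG2 minus Caco-2 on the log2(CPM + 1) scale, bars are standard errors), with circles for all 16 libraries, squares for the 14 libraries without HepG2 co-culture FFA, and filled symbols for an adjusted p under 0.05. The symbols of CDH1, OCLN, F11R and EPCAM stay far below 0, while those of AFDN move from -1.0 to 0.12.

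**Figure D3:**
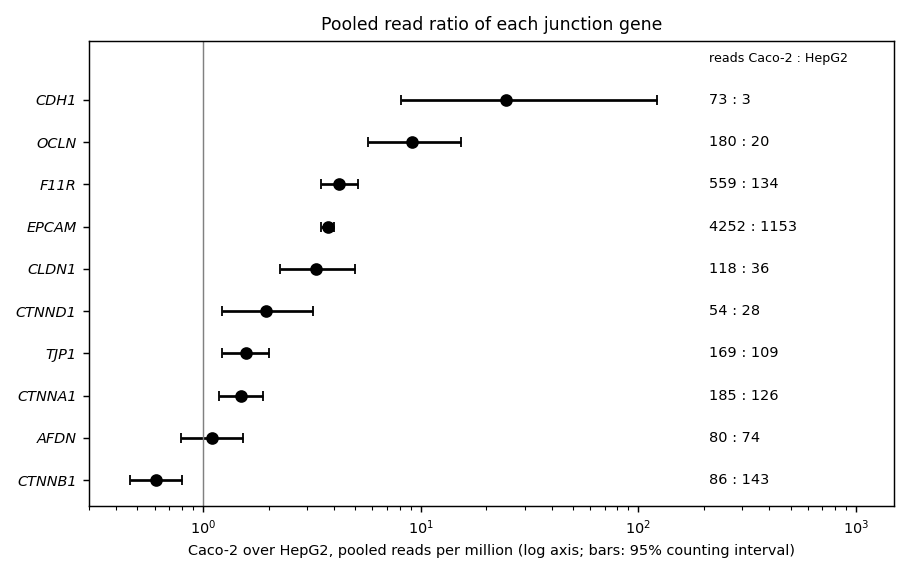
Ratio of pooled CPM, Caco-2 over HepG2 (log axis), for each gene, with 95% counting intervals and the reads of each line printed at the right. Intervals run from 8.11 to 122 for CDH1 with 3 HepG2 reads to 3.5 to 3.99 for EPCAM.

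None of the junction genes of Caco-2 passed the test for FFA, by limma, edgeR or DESeq2. In mono-culture 9 of the 10 had a log2 change above 0 and none passed (0.00647% of 15454 genes did), and in co-culture all 10 had a change below 0 and none passed (0% of all genes did). The average of both contrasts gave 5 above and 5 below 0, with none passing (0% of all genes). The median log2 change of the 10 was 0.25 in mono-culture, beside 0.02 for all genes, and -0.28 in co-culture, beside 0. The 10 share their libraries, so these directions only describe those libraries. At an unadjusted p under 0.05 there was 1 of the 10 in mono-culture (5.8% of all genes), 1 in co-culture (4.88%) and 0 in the average (4.85%).

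The named changes were those of CLDN1 and OCLN. CLDN1 went from 11.9 ± 13 CPM to 30.5 ± 4.63 CPM with FFA in mono-culture (SD, n = 2), a log2 change of 1.78 ± 0.61 (limma unadjusted p = 0.0112, adjusted p = 0.837). Its control pair differed from 2.74 to 21.1 CPM, so the change rests on the replicate with 1 read; without the other control replicate the limma adjusted p was 0.0324. OCLN went from 43.1 ± 19.0 CPM to 19.6 ± 0.156 CPM with FFA in co-culture (SD, n = 2), a log2 change of -1.03 ± 0.34 (limma unadjusted p = 0.00953, adjusted p = 0.862), and in the average over culture its change was -0.50 ± 0.24 (limma unadjusted p = 0.0580, adjusted p = 0.829). EPCAM, with the most reads, changed by 0.10 ± 0.12 in mono-culture and -0.11 ± 0.12 in co-culture on the log2 scale.

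Co-culture gave a similar picture in Caco-2. None of the 10 passed without FFA, with FFA or on average, where 0.0971%, 0.0971% and 0.453% of all genes did, and 1 of the 10 had an unadjusted p under 0.05 each time (10.3%, 7.78% and 11.8% of all genes). Without FFA this was CLDN1, with a log2 change of 1.72 ± 0.61 (limma unadjusted p = 0.0137, adjusted p = 0.382) against the same uneven control pair; without the second replicate of that pair the limma adjusted p was 0.0320. With FFA it was OCLN, which went from 48.3 ± 8.91 CPM in mono-culture to 19.6 ± 0.156 CPM in co-culture (SD, n = 2), a log2 change of -1.25 ± 0.34 (limma unadjusted p = 0.00265, adjusted p = 0.313). On average OCLN changed by -0.72 ± 0.24 (limma unadjusted p = 0.0101, adjusted p = 0.262). OCLN passed by edgeR in the last 2 comparisons, with adjusted p of 0.0348 and 0.0297, and leaving out single libraries kept the limma change between -1.43 and -1.06 with FFA and between -0.95 and -0.49 on average. The hepatocyte markers summed to 2328 to 2852 CPM in Caco-2 mono-culture and 3338 to 3583 CPM in co-culture, and their part in these changes was not tested. Among them APOC3, the marker that was not higher in HepG2, measured 565 to 1051 CPM in mono-culture and 1108 to 1469 CPM in co-culture. It passed for co-culture on average (limma adjusted p = 0.0259).

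The test of whether FFA acted differently in the 2 cultures of Caco-2 gave no gene that passed, among the 10 or among all genes (0%). At an unadjusted p under 0.05 there were 2 of the 10 (5.02% of all genes), CLDN1 with a log2 interaction of -2.08 ± 0.87 (limma unadjusted p = 0.0304) and OCLN with -1.06 ± 0.49 (limma unadjusted p = 0.0473), both with an adjusted p of 0.820. All 10 interactions were below 0, with a median of -0.60 beside -0.06 for all genes; the 10 share their libraries, so this is a description of those 8 libraries. The test for any difference among the 4 Caco-2 groups passed for none of the 10 (0.155% of all genes) and had an unadjusted p under 0.05 for CLDN1 and OCLN (8.17% of all genes).

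**Figure D4:**
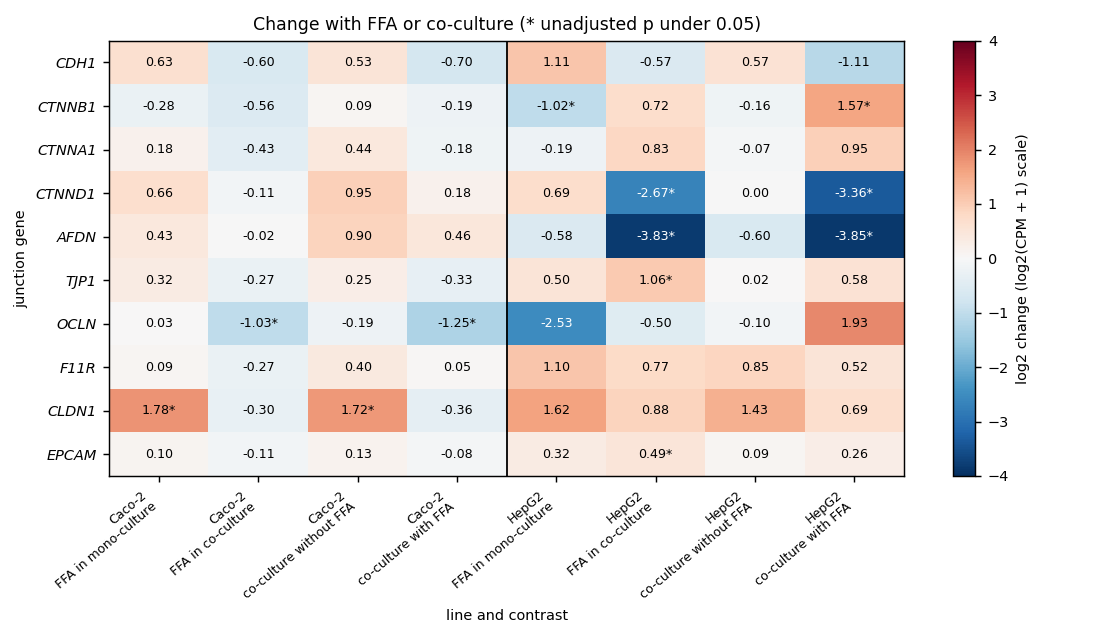
Log2 change of each gene (rows) with FFA or co-culture (columns, 4 contrasts in each line) on the log2(CPM + 1) scale, coloured from blue for lower to red for higher, with asterisks for an unadjusted p under 0.05; none had an adjusted p under 0.05. OCLN has a change of -1.25 in Caco-2 co-culture with FFA, and the dark blue cells of AFDN and CTNND1 in HepG2 are fitted against a pair at 0 and do not measure a fold change.

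In HepG2, none of the 10 passed the adjusted threshold for FFA in mono-culture (0% of 14430 genes), in co-culture (0%) or on average (0.0762%). At an unadjusted p under 0.05 there was 1 of the 10 in mono-culture (6.26% of all genes), 4 in co-culture (15.9%) and 4 on average (13.8%). CTNNB1 went from 33.7 ± 4.84 CPM to 16.2 ± 2.87 CPM in mono-culture (SD, n = 2), a log2 change of -1.02 ± 0.41 (limma unadjusted p = 0.0354, adjusted p = 0.776), and in co-culture it went from 30.0 ± 3.98 CPM to 50.6 ± 13.9 CPM.

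EPCAM had the most reads behind its FFA values in HepG2. It went from 217 ± 21.7 CPM to 272 ± 47.9 CPM in mono-culture and from 230 ± 0.0114 CPM to 324 ± 25.9 CPM in co-culture (SD, n = 2). The log2 change in co-culture was 0.49 ± 0.19 (limma unadjusted p = 0.0291, adjusted p = 0.284) and the average was 0.40 ± 0.13 (limma unadjusted p = 0.0146, adjusted p = 0.242), and with edgeR, which changes the scaling and the count model together, these turned to -0.18 and -0.07, while the average was 0.11 with median-ratio rescaling, 0.28 with quantile normalization and 0.12 with DESeq2. FFA and control libraries did not overlap for EPCAM, which 4.16% of all genes showed in that direction and 3.36% in the other, and none of the other 9 did. Depth moved with the same libraries (430815 to 1657423 reads in the 4 controls and 49634 to 424538 in the 4 FFA libraries), and so did the hepatocyte markers, from 14316 to 19263 CPM in sum over the 4 controls to 16142 to 36386 CPM over the 4 FFA libraries, and the part of either in the EPCAM values was not tested. The 10 intestinal markers, of which CDH17, CDX2 and GPA33 were at 0 in every HepG2 library, summed to 61.2 to 121 CPM in HepG2 co-culture FFA and to 18.2 to 31.7 CPM in the other HepG2 groups, most of it VIL1. The sums in HepG2 co-culture FFA rested on few reads, as 1 read stood for 6.80 and 20.1 CPM there. The part of the intestinal markers was not tested either.

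TJP1 changed by 1.06 ± 0.45 with FFA in co-culture (limma unadjusted p = 0.0468, adjusted p = 0.309) and by 0.78 ± 0.32 on average (limma unadjusted p = 0.0400, adjusted p = 0.342). F11R changed by 0.93 ± 0.35 on average (limma unadjusted p = 0.0272, adjusted p = 0.298), with the mono-culture control pair the lowest. Single libraries decided both: the limma adjusted p for F11R was 0.0254 without co-culture FFA replicate 1, and that for TJP1 was 0.0488 without co-culture control replicate 1. With edgeR their average changes were smaller, 0.41 for F11R and 0.31 for TJP1. The HepG2 co-culture FFA values rested on 6 and 2 reads for TJP1 and on 5 and 4 reads for F11R.

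The fitted changes of AFDN and CTNND1 with FFA in HepG2 co-culture, -3.83 ± 0.72 (limma unadjusted p = 0.000650, adjusted p = 0.114) and -2.67 ± 0.94 (limma unadjusted p = 0.0210, adjusted p = 0.266), compare with 0 reads in the shallow pair and depend on the pseudocount. With a pseudocount of 0.1 in place of 1 the fitted change of AFDN was -7.06 with a limma adjusted p of 0.0462. On average AFDN had a fitted change of -2.21 ± 0.51 (limma unadjusted p = 0.00236, adjusted p = 0.170). Without co-culture FFA replicate 1 its limma adjusted p was 0.00817 in co-culture and 0.0189 on average, and without replicate 2 it was 0.0410 in co-culture. Leaving out either library still left AFDN at 0 in the other.

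For co-culture without FFA, where neither HepG2 pair was the shallow one, none of the 10 passed (0% of all genes did) and none had an unadjusted p under 0.05 (2.61% of all genes). F11R had the smallest p, with a log2 change of 0.85 ± 0.49 (limma unadjusted p = 0.124, adjusted p = 1). With FFA none passed (0% of all genes) and 3 had an unadjusted p under 0.05 (14.7% of all genes). These were CTNNB1, with 1.57 ± 0.41 (limma unadjusted p = 0.00442, adjusted p = 0.190), CTNND1, with -3.36 ± 0.94 (limma unadjusted p = 0.00675, adjusted p = 0.208), and AFDN, with -3.85 ± 0.72 (limma unadjusted p = 0.000630, adjusted p = 0.154). Without co-culture FFA replicate 1 the limma adjusted p was 0.0148 for CTNNB1, 0.0374 for CTNND1 and 0.00812 for AFDN, and without replicate 2 it was 0.0400 for AFDN.

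On average over FFA none of the 10 passed for co-culture in HepG2 (0% of all genes) and the same 3 genes had an unadjusted p under 0.05 (7.72% of all genes), with log2 changes of 0.70 ± 0.29 for CTNNB1 (limma unadjusted p = 0.0389, adjusted p = 0.631), -1.68 ± 0.66 for CTNND1 (limma unadjusted p = 0.0341, adjusted p = 0.631) and -2.23 ± 0.51 for AFDN (limma unadjusted p = 0.00225, adjusted p = 0.498). The interaction of FFA and culture passed for none (0% of all genes) and had an unadjusted p under 0.05 for these 3 (6.94% of all genes), at 1.74 ± 0.58 for CTNNB1 (limma unadjusted p = 0.0158), -3.36 ± 1.33 for CTNND1 (limma unadjusted p = 0.0343) and -3.25 ± 1.03 for AFDN (limma unadjusted p = 0.0125). Without co-culture FFA replicate 1 AFDN had a limma adjusted p of 0.0217 on average and 0.0452 in the interaction, and CTNNB1 had 0.0443 in the interaction. The test for any difference among the 4 HepG2 groups passed for none of the 10 (0% of all genes) and gave the same 3 an unadjusted p under 0.05 (12.2% of all genes). No gene of the 10 separated all 4 co-culture from all 4 mono-culture libraries in HepG2, which 1.12% of all genes did as higher and 1.19% as lower, or in Caco-2 (4.25% and 1.68%). FFA and control were likewise separated for none in Caco-2 (1.15% and 0.744% of all genes).

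Whether the lines differed in their response was tested directly. None of the 10 passed for the averaged FFA effect (0.0912% of all genes) or for the averaged co-culture effect (0.0969%), and edgeR and DESeq2 passed none in these or in any comparison within HepG2. An unadjusted p under 0.05 was found for 3 of the 10 in the first (11.4% of all genes), with HepG2 minus Caco-2 differences of 1.02 ± 0.42 for F11R (limma unadjusted p = 0.0279, adjusted p = 0.366), 0.41 ± 0.15 for EPCAM (limma unadjusted p = 0.0147, adjusted p = 0.299; -0.24 with edgeR) and -2.41 ± 0.53 for AFDN (limma unadjusted p = 0.000455, adjusted p = 0.0958). For co-culture there were 2 (9.72% of all genes), -2.25 ± 0.66 for CTNND1 (limma unadjusted p = 0.00460, adjusted p = 0.260) and -2.91 ± 0.53 for AFDN (limma unadjusted p = 8.27e-05, adjusted p = 0.0661). The AFDN values again contain the pair at 0, and in 14 of 16 fits that left out 1 library they passed (limma adjusted p from 0.00946 to 0.153 for FFA and from 0.00313 to 0.150 for co-culture). F11R reached a limma adjusted p of 0.0389 for FFA without HepG2 co-culture FFA replicate 1, and CTNND1 0.0363 for co-culture without Caco-2 co-culture FFA replicate 2.

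Other genes of these structures, listed with earlier results known, are described by counts, to be read beside the 17.9% of all genes that were lower and the 12.5% that were higher in HepG2. Without the shallow HepG2 pair, 2990 of the 17337 genes tested were lower and 2579 higher. Of 26 further tight junction genes 24 were tested, and 10 were lower and 2 higher in HepG2 (9 and 2 without the shallow HepG2 pair; median log2 difference -1.02, beside -0.16 for all genes). The 4 that stood furthest apart with at least 20 CPM in a line were CLDN7 and CLDN4, which encode claudins, CGN, which encodes the plaque protein cingulin, and PRKCI, a polarity kinase. CLDN7 lay at 139 to 210 CPM in Caco-2 and 0 to 1.81 CPM in HepG2 (log2 difference -7.07, limma adjusted p = 1.28e-11), and CLDN4 at 491 to 791 CPM against 23.5 to 80.6 CPM (-3.93, limma adjusted p = 2.92e-10). The 2 that were higher in HepG2, CLDN6 and MPDZ, were named after their values were seen and had medians of 1.5 and 5.03 CPM there.

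Of 18 further adherens junction genes 16 were tested, with 4 lower and 1 higher in HepG2 (median -0.85), a share close to the 30.3% of all genes. Without the shallow pair 5 were lower and 2 higher. CDH17, the liver-intestine cadherin, had 169 reads in Caco-2 and 0 in HepG2, at least 57.1-fold lower there against a floor of 3 reads over the line, and LIMA1, which links catenins to actin, differed by -2.68 (limma adjusted p = 6.87e-05). The gene that was higher was CDH2 (3.67, limma adjusted p = 7.63e-05). Of 16 desmosome and gap junction genes 10 were tested, with 3 lower, PERP (-1.87, limma adjusted p = 1.04e-06), PKP2 and PPL (the last 2 named after their values were seen), and none higher (median 0.06). This share was again close to the 30.3% of all genes. Without the shallow pair 2 were lower and 2 higher. EPCAM partners, tetraspanins and membrane proteases among them, were lower for 8 of 10 with or without the shallow pair (median -3.61), led by SPINT2 (282 to 387 CPM against 0 to 6.80 CPM), CD9 (392 to 578 CPM against 0 to 32.7 CPM), ST14 (at least 44.9-fold lower) and TSPAN8 (-4.32).

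Of 30 listed genes of the β-catenin pathway 28 were tested, with 6 higher and 1 lower in HepG2 (median -0.14), and without the shallow HepG2 pair 6 were higher and 4 lower of 27 tested. With all 16 libraries the share called was not above the 30.3% of all genes. Without the pair it was close to the share of all genes, of which 5569 of 17337 passed. The Wnt deacylase gene NOTUM (3.56, limma adjusted p = 2.56e-05) and MYC (2.36, limma adjusted p = 7.81e-06) were higher in HepG2, and DKK1, which encodes a secreted Wnt inhibitor, was lower (-6.68, limma adjusted p = 2.61e-07). Outside the marker lists DKK1 was also the only listed gene that passed within a line. In Caco-2 it measured 482 and 317 CPM in mono-culture control, 883 and 697 CPM in mono-culture FFA, 466 and 398 CPM in co-culture control, and 247 and 230 CPM in co-culture FFA. The co-culture FFA pair was the lowest, as for OCLN, though the share of all genes with such a lowest pair was not determined. The change of DKK1 with co-culture under FFA was -1.71 ± 0.19 (limma adjusted p = 0.00115).

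A list of 20 genes held transcription and splicing regulators of the epithelial state together with FN1, VIM and RAB25, which are not such regulators. Of these, 16 were tested, and 10 were lower and 2 higher in HepG2 with or without the shallow pair (median -1.71), beside 17.9% and 12.5% of all genes. RAB25 (-6.89, limma adjusted p = 1.47e-09), the repressor gene SNAI1 (-3.80, limma adjusted p = 6.00e-06) and the epithelial factor gene ELF3 (-3.51, limma adjusted p = 8.97e-05) were lower, and FN1 (2.49, limma adjusted p = 3.58e-08) and ZEB1 (3.47, limma adjusted p = 3.69e-06) higher. ZEB1, named after its values were seen, was at 0 in all 8 Caco-2 libraries and at 4.22 to 20.2 CPM in HepG2. SNAI1 ran from 9.90 to 48.0 CPM in Caco-2 and 0 to 3.64 CPM in HepG2.

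**Figure D5:**
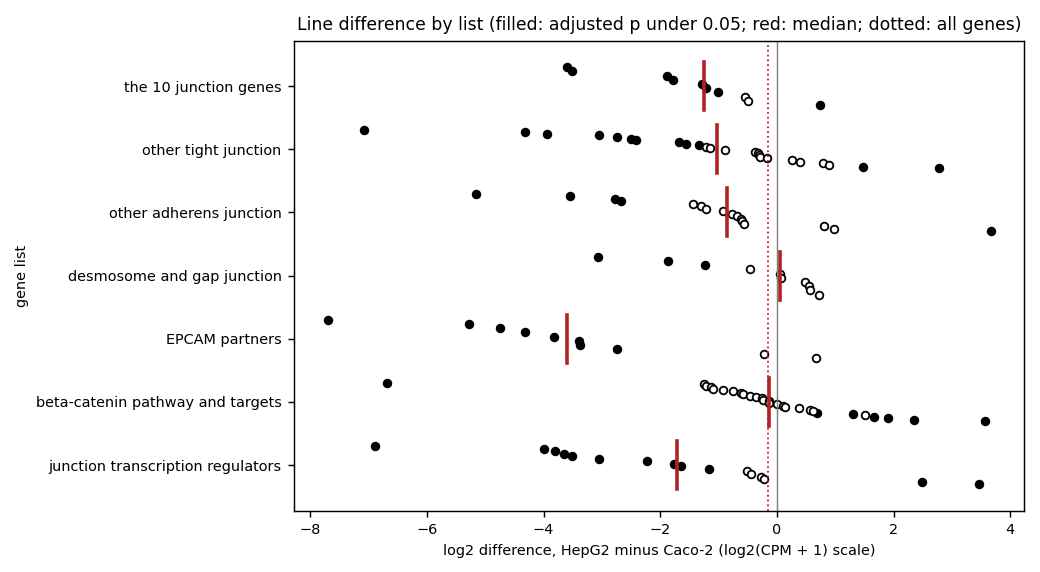
Log2 difference between the lines (horizontal axis, HepG2 minus Caco-2 on the log2(CPM + 1) scale) for the tested genes of 7 lists, with filled points for an adjusted p under 0.05, red bars for list medians and a dotted line for the median of all genes (-0.16). The 10 junction genes, other tight junction genes and EPCAM partners lie mostly left of it, with medians of -1.26, -1.02 and -3.61.

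The genes most like each of the 10 over the 16 libraries were sought among 3746 genes that averaged 20 CPM or more. These correlations share libraries and depth and, for genes that stood apart between the lines, the line difference. CLDN4 (r = 0.997) and CD63 (r = 0.992) were closest to EPCAM, SLC7A7 (r = 0.981) and HMGB2 (r = 0.966) to CDH1, DKK1 (r = 0.930) and CYSTM1 (r = 0.923) to OCLN, and PERP (r = 0.959) to F11R after its readthrough copy. The closest to the catenins were BMP4 (r = 0.846) and MSI2 (r = 0.831) for CTNNB1, FAM50A (r = 0.886) and PPP6R3 (r = 0.863) for CTNNA1, and CD46 (r = 0.922) and TMEM60 (r = 0.894) for CTNND1. PPIA and CD46 (both r = 0.945) were closest to AFDN, ATG3 (r = 0.877) and HSPA4 (r = 0.834) to TJP1, and CLK3 (r = 0.857) and SHISA5 (r = 0.841) to CLDN1. With the line means subtracted, CLDN4 remained among the 2 closest genes to EPCAM (r = 0.934), after XBP1 (r = 0.945), and SLC7A7 remained closest to CDH1 (r = 0.843), whereas OCLN was then closest to RBM25 (r = 0.766). CD46 remained among the 2 closest to AFDN (r = 0.958) and to CTNND1 (r = 0.890). Both genes were at 0 only in the shallow HepG2 pair, whose part in these values was not tested. Within each line, the median r of the 45 pairs over 8 libraries was 0.25 in Caco-2 and 0.08 in HepG2, with ranges from -0.71 to 0.78 and from -0.81 to 0.98. Many of these values rested on few reads, above all in HepG2, so the pairs cannot decide whether the 10 vary together.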

How the data were processed

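RNA of 16 libraries (8 groups of 2 replicates) was measured. The authors deposited 1 table per library of gene values that its header calls TPM. The deposited values are CPM, since within a library they are whole multiples of what 1 read is worth (97.9% or more within 0.02 read, and all once rounding is allowed), and whole reads were recovered from them. The submitters' processing notes name minimap2 2.22 and GRCh38; the study's methods for mRNA sequencing name STAR, RSEM and an Ensembl annotation, without saying whether these were used for Nanopore reads, so the counter and annotation behind the deposited values are uncertain. No sample column was left unused.

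The tests were limma 3.58.1 (R 4.3.3) moderated tests on log2(CPM + 1) with a trended prior variance, with each line fitted alone as 4 group means (residual df 4, prior df 10.3 in Caco-2 and 4.32 in HepG2) and all 16 libraries fitted as 8 group means for comparisons of lines (8 and 5.60). Genes that averaged 1 CPM or more in some group were kept (15454, 14430 and 17544), p-values were adjusted by Benjamini-Hochberg over all of them, and the threshold was 0.05. Fold changes on this scale understate those of low genes. edgeR 4.0.16 and DESeq2 1.42.0 on the recovered reads, 2 scalings (quantile and median-ratio), other filters, a pseudocount of 0.1, a constant prior variance, a replicate block, the study's threshold and the omission of single libraries were alternatives. The fits were tested on simulated data. The scripts ran in Python 3.11.15 with numpy 2.4.6, pandas 2.3.3 and scipy 1.17.1.

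The 10 genes and all gene lists were chosen with earlier results of these data known. Members with an unadjusted p under 0.05 in a comparison were named with their values, and from other lists up to 4 genes per list with an adjusted p under 0.05 and the largest change among those of at least 20 CPM.

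Gene positions are from GENCODE 44 and promoters from the RefSeq table on GRCh38.p14. The labels' extraction text names a different cell type from the 2 lines, and the markers of HepG2 were checked against its label.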

Additional observations from a re-analysis of the deposited data

How the results depend on the processing

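Counts of the 10 genes that passed were most sensitive in HepG2 and where the HepG2 co-culture FFA pair entered. For the comparison of lines, 8 passed in the fit reported, 5 with DESeq2, 4 when only mono-culture controls were contrasted, 7 without the shallow pair, 8 with the replicate block and 6 to 8 with 1 library left out; AFDN turned to 0.12 without the shallow pair, 0.18 with that and edgeR, and 0.96 in mono-culture controls. EPCAM turned with edgeR to -0.18 (HepG2 FFA in co-culture), -0.066 (averaged) and -0.24 (difference between lines); the cause was not tested. At the study's threshold (1.2-fold, unadjusted p under 0.05) counts in Caco-2 rose from 0 to 1 for FFA in mono-culture, FFA in co-culture and co-culture (without FFA, with FFA, averaged), and to 2 for the interaction and any difference. In HepG2 they rose from 0 to 1 for FFA in mono-culture, 4 for FFA in co-culture and averaged, and 3 for co-culture with FFA, co-culture averaged, the interaction and any difference, and between lines to 3 for FFA and 2 for co-culture. edgeR gave 1 for Caco-2 co-culture with FFA, co-culture averaged and any difference. A pseudocount of 0.1 gave 1 for HepG2 FFA in co-culture and for both differences between lines. A constant prior variance gave 1 for HepG2 FFA in co-culture, 2 for co-culture with FFA and 1 for the co-culture difference between lines, and a mean of at least 10 CPM gave 1 for the last. With 1 library left out, counts ran from 0 to 1 for Caco-2 FFA in mono-culture and co-culture without FFA, and in HepG2 from 0 to 3 for FFA in co-culture, 0 to 4 for FFA averaged, 0 to 3 for co-culture with FFA, 0 to 2 for co-culture averaged, 0 to 2 for the interaction and 0 to 3 for any difference. Between lines they ran from 0 to 3 for FFA and 0 to 2 for co-culture. Where this left a group with 1 library, that library was assumed to vary like the others. The replicate block changed no count of the 10 (8 for the lines). Deviations of same-numbered libraries from their group means correlated on average by 0.0142 in Caco-2 and 0.00866 in HepG2 over genes of at least 1 CPM, and by 0.151 (-0.0172 to 0.291) and 0.0529 (-0.103 to 0.121) over those of at least 100 CPM, where 4 of 6 and 3 of 6 pairs of groups exceeded 0.1. Not every pair did, so the numbers were not taken to pair the libraries. Of the values of single genes under alternatives, 732 kept their direction and side of the threshold, 63 newly passed, 40 no longer passed and 6 turned. The 6.80 and 20.1 CPM per read of the shallow pair limit every HepG2 co-culture FFA value.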
